A study of Mus musculus with 6 samples.

Results

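The chemokine genes Ccl22, Ccl17, Ccl3, Ccl4 and Ccl5 and the CCL22 receptor gene Ccr4 were followed in germinal center (GC) B cells that had or lacked the IL-21 receptor. These 6 genes of the 27179 in the count table were chosen by name, as members of 1 chemokine group, after the difference between Il21r-/- and WT libraries of the same table was known. The genotype difference of the members is therefore given as a description with no test, and only their course over days, which did not choose them, was tested.

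RNA-seq was performed on 6 libraries of splenic GC B cells that bound the hapten NP and carried IgG1, 1 library from WT and 1 from Il21r-/- mice of the C57BL/6 background on each of days 7, 10 and 14 after immunization with NP coupled to keyhole limpet hemocyanin in alum. WT and Il21r-/- cells differed by loss of the IL-21 receptor, and all 6 groups had the same immunization and the same sort for B220+ CD38- cells without CD138, IgM, IgD or Gr1. With 1 library for each genotype and day, 3 days stand in for replicates, and the number of mice in a library is uncertain, because the series design text gives an independent mouse per sample, the methods several mice per genotype, and a supplement 3 mice of each genotype on day 7. The methods also describe irradiated Ly5.1 hosts given marrow of either genotype for nearly all experiments, so residual host cells may be among the sorted cells. Each library held 21353438 to 27435124 reads counted on genes. Il21r itself was at 346, 263 and 247 CPM (reads of a gene scaled to the size and composition of the library) in WT on days 7, 10 and 14 and at 106, 128 and 113 CPM in Il21r-/-, with the largest Il21r-/- value under the smallest WT value. Reads of Il21r thus remained in the Il21r-/- libraries, at a log2 fold change of −1.29 ± 0.15 (SE, adjusted p = 0.00137, quasi-likelihood test over 3 days).

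Chemokines are small secreted proteins that guide cells through G protein-coupled receptors. CCL22 and CCL17 are the ligands of CCR4, a receptor known from helper and regulatory T cells, and CCL22 is made by dendritic cells, macrophages and activated B cells, among them GC B cells that receive help from T cells. CCL3, CCL4 and CCL5 are inflammatory chemokines of other receptors, and antigen receptor signaling induces CCL3 and CCL4 in B cells. NF-κB and, for CCL17 and CCL22, IL-4 acting through STAT6 are known inducers of these genes.

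Ccl22 and Ccl17 are neighbors on chromosome 8 of GRCm38 and lie on the plus strand, Ccl22 at 94745684 to 94751388 and Ccl17 at 94809380 to 94812038. Ccr4 is on the minus strand of chromosome 9 at 114490316 to 114505476. Ccl5, Ccl3 and Ccl4 lie on chromosome 11, with Ccl5 at 83525778 to 83530518, Ccl3 at 83647843 to 83649378 and Ccl4 at 83648624 to 83664683. These are RefSeq gene spans, and the RefSeq span of Ccl4 overlaps that of Ccl3, whereas the GENCODE span of Ccl4 starts at 83662584 and does not. No 100-base window of the GENCODE transcripts of any of the 6 genes was shared with a transcript of another gene, so their reads can be told from those of paralogs.

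Sequences before the RefSeq promoter starts are shown for the pair of genes with high levels in Il21r-/- cells, Ccl22 and Ccr4, and for Ccl17, the neighbor of Ccl22 that was nearly without reads. They are RefSeq windows of GRCm38.p6, 5′ to 3′ on the strand of the gene, cut where an annotated transcript starts. The Ccl22 window lies before the whole gene, whereas those of Ccl17 and Ccr4 precede internal starts and lie within the gene spans given above, at no annotated GENCODE exon of their gene. Capitals mark matches to an NF-κB-like motif, GGG and CC with any 5 bases between them on either strand, or a STAT6-like motif, TTC and GAA with any 4 bases between them, which reads the same on both strands. No marked matches overlap.
Ccl22, plus strand, chr8:94745434-94745589: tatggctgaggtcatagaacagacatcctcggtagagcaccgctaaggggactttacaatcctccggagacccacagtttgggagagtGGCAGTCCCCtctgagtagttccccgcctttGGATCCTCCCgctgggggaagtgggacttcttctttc
Ccl17, plus strand, chr8:94810203-94810452: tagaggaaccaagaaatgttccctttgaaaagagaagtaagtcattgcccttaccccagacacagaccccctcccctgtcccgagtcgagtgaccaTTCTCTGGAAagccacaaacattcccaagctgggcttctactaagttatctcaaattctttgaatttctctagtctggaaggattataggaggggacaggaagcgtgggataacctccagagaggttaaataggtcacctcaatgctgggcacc
Ccr4, minus strand, chr9:114496563-114496794: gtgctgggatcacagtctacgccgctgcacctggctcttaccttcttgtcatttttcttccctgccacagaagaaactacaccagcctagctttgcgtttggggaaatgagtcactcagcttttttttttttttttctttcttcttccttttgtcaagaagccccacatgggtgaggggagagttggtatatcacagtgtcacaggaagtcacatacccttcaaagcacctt
The Ccl22 window held 2 NF-κB-like matches, both on the opposite strand, and no STAT6-like match. The Ccl17 window held 1 STAT6-like match and no NF-κB-like match, and the Ccr4 window held neither. Among all 32851 RefSeq windows of 300 bases, 50.8% held an NF-κB-like and 6.95% a STAT6-like match, so the former is common and neither match shows a binding site. The Ccl3 window held no match, and Ccl4 and Ccl5 had no sequence here.

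Ccl22 was the member with the most reads, and its Il21r-/- and WT values did not overlap, with 1 library per genotype and day. In WT, 27, 12 and 24 reads were counted on Ccl22 on days 7, 10 and 14, which is 0.989, 0.488 and 1.12 CPM. In Il21r-/-, the same days gave 409, 824 and 500 reads, or 17.8, 31.4 and 20.1 CPM. The Il21r-/- libraries were thus all far above the WT libraries, and the gap was widest on day 10, when WT was at its lowest and Il21r-/- at its highest value.

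The ratio of Ccl22 reads per library size, Il21r-/- to WT, was 18 on day 7 (95% interval 12.2 to 27.7), 64.4 on day 10 (36.6 to 125) and 17.9 on day 14 (11.9 to 28.1). Such intervals hold counting error alone, as the reads carry no molecular identifiers and copies of 1 molecule can be counted more than once. The fitted log2 fold change was 4.17 ± 0.54 (SE) on day 7, 5.99 ± 0.62 on day 10, 4.15 ± 0.55 on day 14 and 4.74 ± 0.32 over 3 days. On the fitted scale days 7 and 14 were within 1 standard error of each other. The counting interval of day 10 did not overlap those of the other days, but it leaves out the spread between libraries. A difference between days was not tested. Over the 3 libraries of each genotype, Ccl22 was at 23.1 ± 7.26 CPM (SD, n = 3) in Il21r-/- and 0.867 ± 0.335 CPM (SD, n = 3) in WT, a 26.6-fold ratio of means. In bulk libraries a larger share of Ccl22-expressing cells and more Ccl22 RNA per cell cannot be told apart.

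Ccr4, the receptor of CCL22, had fewer reads than its ligand in every library except WT day 10, and the same separation by genotype. In WT, 19, 13 and 5 reads were counted on days 7, 10 and 14, which is 0.696, 0.528 and 0.234 CPM. In Il21r-/-, Ccr4 had 151, 226 and 236 reads, or 6.59, 8.61 and 9.47 CPM. No WT library came near an Il21r-/- library, and the largest gap was on day 14, where the WT value rests on 5 reads.

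For Ccr4, the ratio of reads per library size was 9.47 (95% interval 5.86 to 16.2) on day 7, 16.3 (9.34 to 31.1) on day 10 and 40.5 (17.1 to 126) on day 14. The interval of day 14 overlapped that of day 10 but not that of day 7. These intervals leave out the spread between libraries, with 1 library behind each value, and a difference between days was not tested. On the fitted log2 scale the difference was 3.23 ± 0.53 (SE) on day 7, 4.01 ± 0.58 on day 10, 5.31 ± 0.77 on day 14 and 4.02 ± 0.34 over 3 days. Without the WT day 14 library the 3-day value was 3.6, and without the WT day 7 library 4.44. The mean over 3 libraries was 8.22 ± 1.48 CPM (SD, n = 3) in Il21r-/- and 0.486 ± 0.234 CPM (SD, n = 3) in WT, a 16.9-fold ratio of means.

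**Figure D1:**
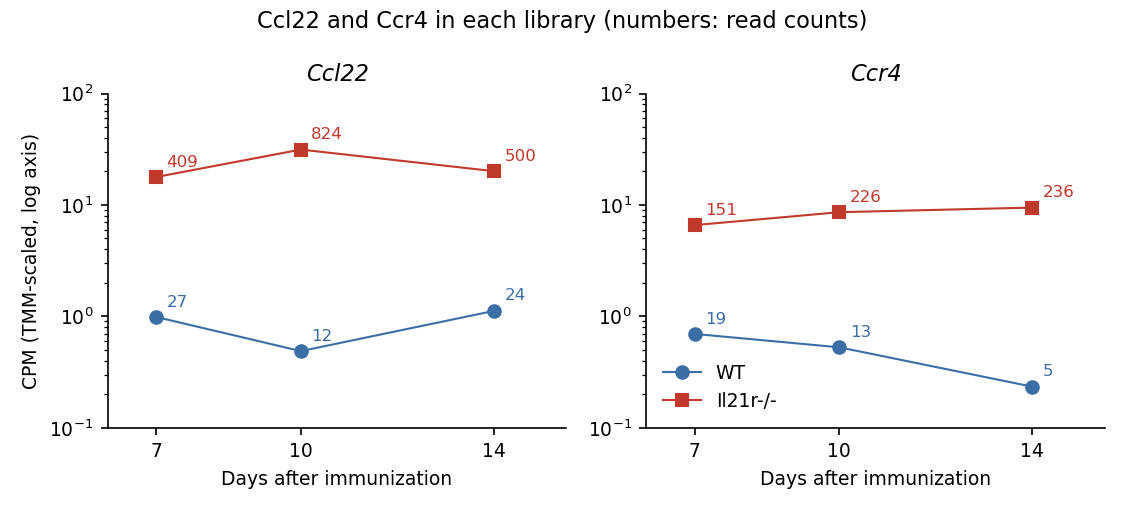
Levels of Ccl22 (left) and Ccr4 (right) in each library, as CPM on a log axis against days after immunization, with the read count beside each point. Circles are WT and squares Il21r-/-, 1 library each with no error bar. All 3 Il21r-/- points of Ccl22 (17.8 to 31.4 CPM) and of Ccr4 (6.59 to 9.47 CPM) lie above the WT points.

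Per exon length, Ccl22 reached a mean of 12.8 CPM per kilobase of exon (RPKM) in Il21r-/- against 0.479 RPKM in WT, and Ccr4 2.95 against 0.174 RPKM. The ligand gene was thus at a higher level than the receptor gene in both genotypes on this scale. Across the 6 libraries the log2 CPM of Ccl22 and Ccr4 had a Pearson r of 0.956, which follows the genotypes, since the points form a WT and an Il21r-/- cluster. Within a genotype their order over days differed. Ccl22 peaked on day 10 in Il21r-/- and was lowest then in WT, whereas the Ccr4 values were ordered by day in both genotypes, upward in Il21r-/- and downward in WT.

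Ccl17, the other CCR4 ligand, was close to absent. A total of 3 reads were counted in the Il21r-/- day 10 library and none in the other 5 libraries, so its values stayed at or under the 3 counts that a count of 0 allows, which is 0.11 to 0.14 CPM depending on the library. The Il21r-/- day 10 library with those reads was also the one with the most Ccl22 reads.

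The inflammatory chemokine genes were at or near the same limit. Ccl3 had no read in any of the 6 libraries, and this allows up to 3 counts in each. Ccl4 had 6 reads in the Il21r-/- day 14 library and none elsewhere, at least 1.71-fold higher than the 3 counts allowed in WT on that day. Both genes mark B cells shortly after antigen receptor stimulation. At this depth Ccl3 was detected in no library and Ccl4 only in Il21r-/- on day 14.

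Ccl5, a chemokine of T and NK cells, was read in 5 of 6 libraries at very low counts. WT had 1, 0 and 4 reads on days 7, 10 and 14, and Il21r-/- 3, 1 and 3 reads. The genotypes overlapped, and the ratio of Il21r-/- to WT was 3.57 (95% interval 0.287 to 188) on day 7 and 0.643 (0.0942 to 3.8) on day 14. Its mean of 0.181 RPKM in Il21r-/- and 0.14 RPKM in WT was far under the 12.8 RPKM of Ccl22 in Il21r-/-, and a genotype difference could not be seen at this depth.

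**Figure D2:**
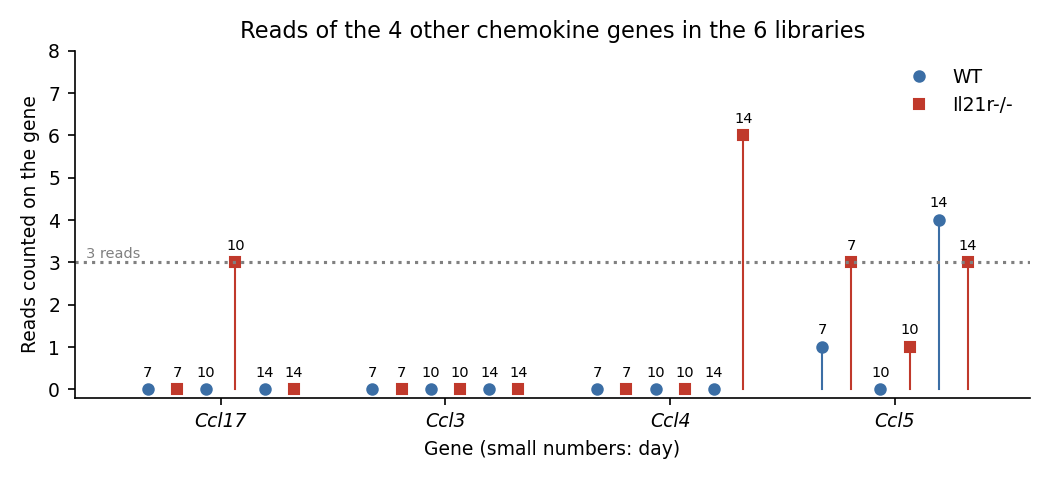
Reads counted on Ccl17, Ccl3, Ccl4 and Ccl5 in the 6 libraries, on a linear axis from 0. Circles are WT and squares Il21r-/-, the small numbers give the day, and the dotted line marks 3 reads. The highest values are 6 reads of Ccl4 in Il21r-/- on day 14 and 4 reads of Ccl5 in WT on day 14.

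Of the 6 members, Ccl22 and Ccr4 passed the filter on low counts (an average log2 CPM of at least 0), and the other 4 did not and have no fitted value. Both that passed did so mainly through their Il21r-/- libraries. In the fit across all genes both were past an adjusted p of 0.05 toward Il21r-/- on day 7 and over 3 days, but their choice rested on this contrast, so that count is fixed by the choice and nothing is read from it or from the shares that follow. Of all 11005 genes tested, 1.07% were called on day 7 and 0.872% called higher in Il21r-/-, and 5.92% were called over 3 days and 4.52% called higher. The Il21r-/- libraries were all above the WT libraries for both genes, as for 10.0% of all genes tested. For both, the lowest Il21r-/- library was also more than 4-fold above the highest WT library, which held for 0.191% of genes. In order of the 3-day log2 fold change toward Il21r-/-, Ccl22 stood at place 9 and Ccr4 at place 13 of 11005. On single days Ccl22 stood at places 7, 8 and 20, and Ccr4 at places 18, 15 and 8.

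The choice of members did not use their course over days, which was tested as a linear trend shared by the genotypes. Ccl22 changed by 0.018 ± 0.053 on the log2 scale per day (SE, 95% interval −0.086 to 0.12), with adjusted p = 0.875 by the quasi-likelihood test. The standard errors and intervals were computed apart from that test and may be too narrow. Ccr4 changed by 0.009 ± 0.052 per day (SE, interval −0.093 to 0.11, adjusted p = 0.929). Neither was called, among 4.43% of genes called and 1.07% called as rising, and the intervals still allow a change in either direction. A shared slope cannot show the opposite courses of Ccr4 in the 2 genotypes described above, and the difference in slope was not tested for the members.

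The rest of the chemokine genes gave a background for these values. Of 31 other chemokine genes, 19 had no read in any library, among them Ccl2, Ccl19, Ccl20 and Cxcl13, and 24 had at most 3 reads in every library. Only Ccl25 and Ccl27a, homeostatic chemokines of thymus and gut and of skin, passed the filter. Ccl25 was at 1.76, 1.95 and 2.39 CPM in WT on days 7, 10 and 14 and at 1.75, 1.52 and 2.41 CPM in Il21r-/-. Ccl27a was at 1.47, 1.3 and 1.69 CPM in WT and at 0.916, 1.03 and 0.923 CPM in Il21r-/-. The genotypes overlapped for Ccl25 and not for Ccl27a, and neither difference passed the test (log2 fold change −0.11 ± 0.25 and −0.63 ± 0.29, adjusted p = 0.825 and 0.189, edgeR quasi-likelihood test). Of these 2 genes, 1 had an unadjusted p under 0.05 over 3 days, and DESeq2 called 0. Ccl22 was thus the chemokine gene with the highest level in Il21r-/- libraries, whereas in WT both Ccl25 and Ccl27a were above it per exon length.

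Ccr1 and Ccr3, which bind CCL5 among other ligands, had few reads that varied widely among libraries. Ccr1 had 15, 2 and 5 reads in WT on days 7, 10 and 14 and 40, 14 and 8 in Il21r-/-, and Ccr3 had 21, 5 and 2 reads in WT and 10, 3 and 35 in Il21r-/-. Ccr8, a receptor of activated T cells, had no read. None of these 3 receptors passed the filter, whereas Ccr4 had enough reads for a fit.

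Of 22 receptors other than Ccr4, 8 were tested and 4 were called over 3 days, against 5.92% of all genes (median log2 fold change 0.05 over the 8, 0.0097 over all genes). Ccr7, which draws cells to T cell zones, rose by 1.81 ± 0.24 in Il21r-/- (SE, adjusted p = 0.00322, edgeR quasi-likelihood test), Ccr10, known from antibody-secreting cells, by 1.85 ± 0.34 (adjusted p = 0.0118), and Ccr6, a receptor of naive and memory B cells, by 1.33 ± 0.24 (adjusted p = 0.0121), whereas Cxcr3, an interferon-linked receptor, was lower at −1.48 ± 0.32 (adjusted p = 0.0145). Ccr4 differed more than these 4 on each day, without a test of that gap. Without the WT day 14 library Ccr7 alone was called, and Ccr10 was also lost without the Il21r-/- day 14 library (adjusted p = 0.0501) and Cxcr3 without the Il21r-/- day 7 library (adjusted p = 0.075). On day 7, Ccr7 (1.66 ± 0.39, adjusted p = 0.0045, likelihood ratio test) and Cxcr3 (−1.5 ± 0.44, adjusted p = 0.0499) were called, against 1.07% of all genes, and neither was with DESeq2. Ccr6, Cxcr3 and Ackr2, a scavenging receptor of CC chemokines, fell over days by 0.285, 0.435 and 0.234 on the log2 scale per day (adjusted p = 0.0113, 0.00592 and 0.00611, edgeR quasi-likelihood test). A trend was called for 4.43% of all genes, and Ccr4 had no called trend. The trend calls of Ccr6, Cxcr3 and Ackr2 were lost without the WT day 14 library (adjusted p = 0.138, 0.0649 and 0.0969), and no gene of the table had a called trend without the WT day 7 library. Cxcr4 and Cxcr5, which place GC B cells in the dark and light zone, were at means of 174 and 131 RPKM over the 6 libraries, far above Ccr4 at 1.56 RPKM, and neither was called.

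**Figure D3:**
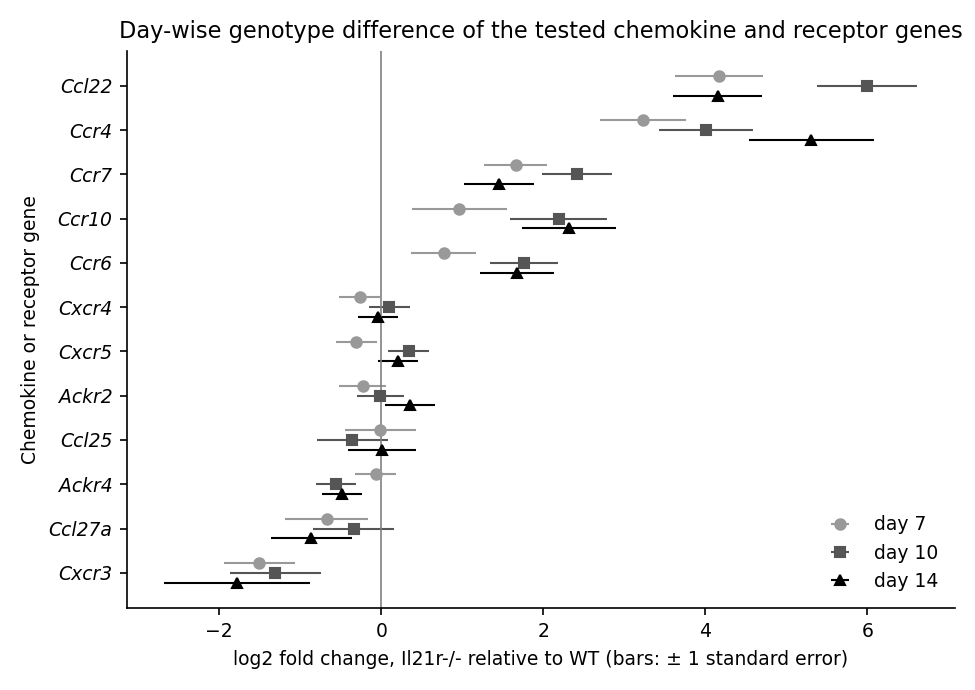
Fitted log2 fold change, Il21r-/- relative to WT, of the 12 chemokine and receptor genes that passed the filter, on days 7, 10 and 14. Points are estimates from 1 library per genotype and day and bars are 1 standard error. Ccl22 (4.15 to 5.99) and Ccr4 (3.23 to 5.31) lie furthest to the right on each day.

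**Figure D4:**
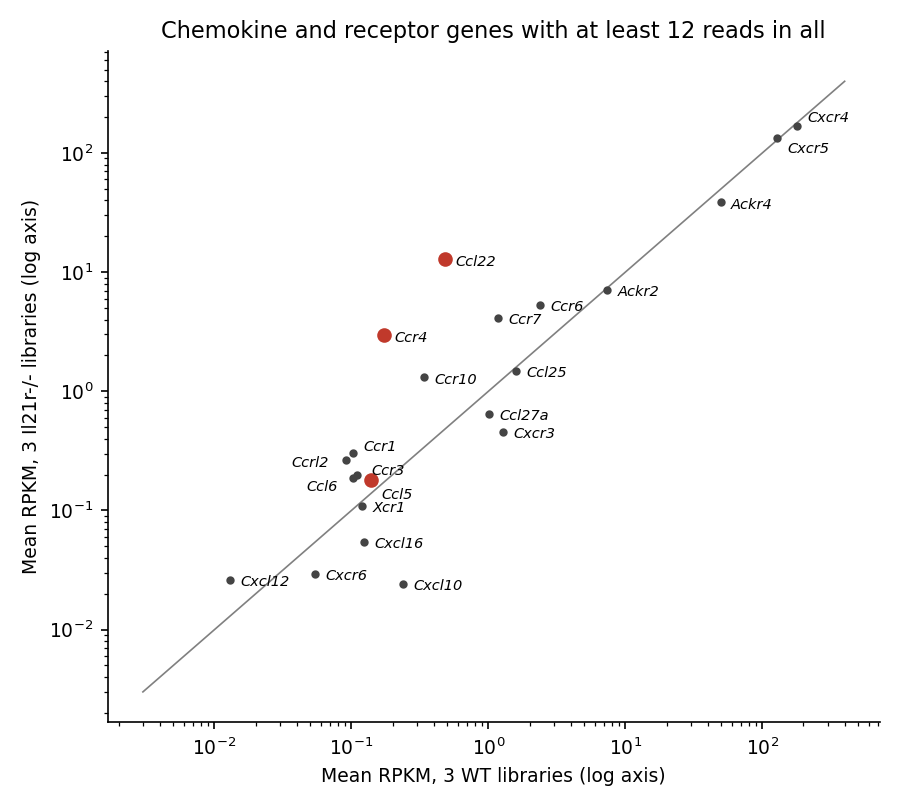
Mean RPKM of 3 Il21r-/- libraries against the mean of 3 WT libraries, on log axes, for 22 chemokine and receptor genes with at least 12 reads in all. Large points are the members Ccl22, Ccr4 and Ccl5, and the line marks equal levels. Ccl22 and Ccr4 stand above the line, and Ccl5 lies near it.

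Genes of the signals known to induce these chemokines are given beside them, with no statement on what links them. Of 28 NF-κB and CD40 genes, all tested, 4 rose in Il21r-/- over 3 days and none fell, against 4.52% of all genes called higher. The median log2 fold change of the 28 was 0.21, against 0.0097 over all genes. The 4 were Cd83 (0.93), Ebi3 (1.16), Bcl2l1 (0.98) and Cd40 (0.53), against 4.74 for Ccl22. Their adjusted p was 0.00669, 0.013, 0.0123 and 0.0164 (edgeR quasi-likelihood test). With day as a replicate block 14 were called, 13 higher and 1 lower, in a fit that called 22.9% of all genes. Leaving out 1 library gave 0 calls without WT day 14, 2 without Il21r-/- day 14 and 11 without Il21r-/- day 10, in fits that called 1.24%, 2.51% and 19.1% of all genes. Cd40 was called in none of the fits with a library other than Il21r-/- day 10 left out (adjusted p = 0.0574 to 0.198). On day 7 none was called by edgeR's likelihood ratio test, against 3 at an unadjusted p under 0.05 and 1 by DESeq2. Tnf alone fell over days, at −0.115 on the log2 scale per day (adjusted p = 0.0384, edgeR quasi-likelihood test), against 4.43% of all genes with a called trend.

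Antigen receptor signaling induces Ccl3 and Ccl4, which were hardly read here, and 16 of 20 other genes linked to that signaling, induced by it or not, were tested. Over 3 days 3 rose in Il21r-/- and none fell, against 4.52% of all genes called higher. The median log2 fold change of the 16 was 0.25, against 0.0097 over all genes. The 3 were Cd69 (0.76), Rgs1 (1.28) and Cd72 (1.98), with adjusted p = 0.00865, 0.0262 and 0.00417 (edgeR quasi-likelihood test). Cd72 was not called with day as a replicate block (adjusted p = 0.129). The list had 1 call without either day 14 library, in fits that called 1.24% (without WT) and 2.51% (without Il21r-/-) of all genes. Without Il21r-/- day 10 it had 5, where 19.1% of all genes were called. Rgs1 was called in none of the fits with a library other than Il21r-/- day 10 left out (adjusted p = 0.0653 to 0.138). Rgs1 was also called on day 7 (1.7 ± 0.48, adjusted p = 0.0477, likelihood ratio test), a call lost with DESeq2. Dusp4 and Dusp5 fell over days by 0.254 and 0.139 per day (adjusted p = 0.00779 and 0.0231, edgeR quasi-likelihood test), against 4.43% of all genes with a called trend. Dusp5 was called lower in Il21r-/- with the block (−0.54, adjusted p = 0.003).

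A list of 15 genes held genes of IL-4 and STAT6 signaling, which is known to induce Ccl22 and Ccl17, and Il21r, the targeted gene. Of these, 13 were tested and 5 were called over 3 days (median 0.25), against 5.92% of all genes. The lower call of Il21r is fixed by the design and is part of each genotype count given for this list. Ighe, whose germline transcript STAT6 induces, was at 16.3, 12.2 and 18.1 CPM in WT on days 7, 10 and 14 and at 107, 123 and 107 CPM in Il21r-/- (2.85 ± 0.16, adjusted p = 6.87e-05, edgeR quasi-likelihood test). Like Ccl22, Ighe had its highest Il21r-/- and lowest WT level on day 10. Fcer2a, the low-affinity IgE receptor, rose by 1.54 (adjusted p = 0.00119) and Il4i1 by 1.21 (adjusted p = 0.0139), and Jak3 was lower at −0.62 (adjusted p = 0.0296, and 0.069 to 0.139 with any library other than Il21r-/- day 10 left out), beside Il21r itself. With day as a replicate block (22.9% of all genes called) 9 were called, 7 higher and 2 lower, among them Il4ra (0.25, adjusted p = 0.0211). Leaving out Il21r-/- day 10 gave 8 calls, where 19.1% of all genes were called. There were 3 calls without WT day 10, WT day 14 or Il21r-/- day 14, in fits that called 3.09%, 1.24% and 2.51% of all genes. On day 7 Ighe and Fcer2a were called higher and Il21r lower, against 1.07% of all genes called. Il4ra and Fcer2a fell over days by 0.096 and 0.146 per day (adjusted p = 0.0262 and 0.023, edgeR quasi-likelihood test), against 4.43% of all genes with a called trend. The trend calls of these 3 signaling lists were all lost without the WT day 14 library and without the WT day 7 library.

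Genes with the profile most like that of a member were named by Pearson r of log2 CPM over the 6 libraries, among 11004 genes. For Ccl22 they were Ighe (r = 0.9977), Pdia4, a protein disulfide isomerase (0.9974), Mob3b (0.9968), Snx18, a sorting nexin (0.9930), and Tanc2 (0.9911). For Ccr4 they were Pglyrp1, a peptidoglycan recognition protein (0.9995), Slc2a6, a sugar transporter (0.9993), A930005H10Rik (0.9982), Tbc1d4, a regulator of glucose transporter traffic (0.9950), and Dcaf4 (0.9949). With points in a WT and an Il21r-/- cluster, r mostly follows the genotype, and likeness in shape says nothing of size. Pdia4 was at 43.4, 41.7 and 44.8 CPM in WT and at 57.3, 59.2 and 58.5 CPM in Il21r-/-, whereas Tanc2 was at 0.55, 0.285 and 0.656 CPM in WT and at 6.98, 17.9 and 16.5 CPM in Il21r-/-. Pglyrp1 shared with Ccr4 the order by day, with 8.83, 7.93 and 6.18 CPM in WT and 19.9, 23.1 and 24.3 CPM in Il21r-/-.

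Dendritic cells and macrophages also make CCL22, and T cells carry CCR4, so their markers were measured beside the members. Of the 8 dendritic cell genes, Clec10a alone had no read in any library, Itgax had 1 to 11 reads per library and Xcr1 10 to 15. The summed list was at 114 to 151 CPM in WT and 132 to 168 CPM in Il21r-/-, carried by Fscn1 and Flt3. At most 3 CPM was reached in every library by 6 of the 8 genes. Fscn1 and Flt3 were not called over 3 days (0.67, adjusted p = 0.184, and −0.3, adjusted p = 0.169, edgeR quasi-likelihood test), whereas with day as a replicate block Fscn1 was called higher (0.69, adjusted p = 3.98e-07) and Flt3 lower (−0.3, adjusted p = 0.0107). Zbtb46, which was not tested, had 12 reads in all WT and 37 in all Il21r-/- libraries, without overlap in CPM. The T cell gene Cd3e had 0 to 2 reads per library. Cd3d had 22 reads in all WT and 34 in all Il21r-/- libraries, and Cd3g 13 and 5, both with overlap in CPM. The T cell sum, carried by Lck, was 86.8 to 122 CPM in WT and 82.2 to 117 CPM in Il21r-/-, with 8 of 9 genes at no more than 3 CPM. The 8 macrophage and monocyte markers summed to 9.55 to 15.8 CPM in WT and 13.1 to 26 CPM in Il21r-/-, with Cd68 called higher (0.62 ± 0.17, adjusted p = 0.0449, edgeR quasi-likelihood test, a call lost when any library other than Il21r-/- day 10 was left out). All 6 tested macrophage markers had a positive log2 fold change over 3 days (median 0.91). With day as a replicate block 3 were called higher, Adgre1 (1.35, adjusted p = 0.00313), C1qa (1.19, adjusted p = 0.00407) and Cd68 (0.62, adjusted p = 0.00182). The block fit called 22.9% of all genes. Single days were mixed, with Csf1r at −0.89 ± 1.2 (SE) and Vcam1 at −0.75 ± 1.2 on day 10 and Lyz2 at −0.33 ± 1.1 on day 14. Of the untested markers, Itgam was lower in Il21r-/- (78 reads in WT, 43 in Il21r-/-) and C1qb higher (16 and 44).

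Of the other marker sums, those of NK and plasma cells did not overlap between genotypes. The 7 NK and cytotoxic markers were at 0.447 to 1.32 CPM in WT and 1.69 to 2.05 CPM in Il21r-/-. That sum was carried mainly by Prf1, at 0.285 to 0.769 CPM in WT and 1.04 to 1.48 CPM in Il21r-/-. The rest of the NK markers overlapped between genotypes or, for Ncr1, had no read. The neutrophil markers were at 0 to 1.06 and 0.152 to 0.567 CPM, and the basophil and mast cell markers had no read. The 5 naive and memory B cell markers were at 25.9 to 71.6 CPM in WT and 51.2 to 128 CPM in Il21r-/-. Of the 5, 3 were called higher over 3 days, against 4.52% of all genes, among them Ccr6 and Klf2 (1.02 ± 0.15, adjusted p = 0.00386, edgeR quasi-likelihood test). GC B cell markers, Bcl6 among them, summed to 1680 to 2070 CPM in WT and 1570 to 1910 CPM in Il21r-/-, with none called by edgeR's quasi-likelihood test, 0 at an unadjusted p under 0.05 and 0 by DESeq2, whereas with day as a replicate block Bcl6 was called lower (−0.25, adjusted p = 0.0211) and Fas higher (0.24, adjusted p = 0.0307). General B cell markers were at 4930 to 6480 and 5690 to 7550 CPM, with Pax5 called higher (0.67, adjusted p = 0.0387, edgeR quasi-likelihood test). With the block 3 of 4 were called higher, in a fit that called 22.9% of all genes. Plasma cell markers, carried by Jchain, were at 2500 to 2720 and 2740 to 3580 CPM. Within the plasma cell list Prdm1 was called lower (−1.64, adjusted p = 0.0216) and Xbp1 higher (0.39, adjusted p = 0.0396), and Sdc1, which was not tested, was at 0.81 CPM in WT and 0.431 CPM in Il21r-/- without overlap. The calls of Xbp1, Pax5 and Prdm1 were each lost with at least 4 of the 6 libraries left out in turn. The part of the dendritic cell, T cell, NK, macrophage, plasma, general B and naive or memory markers in the Ccl22 and Ccr4 difference was not tested.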

How the data were processed

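Libraries were TruSeq preparations of total RNA from sorted splenic cells, and the authors deposited whole-number read counts per gene, not normalized, made from single-end reads on mm10 with featureCounts and an inbuilt RefSeq annotation (the submitters' notes name CASAVA 1.8.2 for the sequencer output). Strand and multi-mapping settings are not given in the sources used here. Single-library and series tables were identical for all 6 libraries. Symbols came from RefSeq for 25275 identifiers and GENCODE for 17. The 1887 without a symbol, 1.57 to 2.24% of counts, stayed in library totals.

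With R 4.3.3 and edgeR 4.0.16, tests left out genes with an average log2 CPM below 0, Ig variable genes, Xist and genes of the Y chromosome (11005 tested), and TMM factors were computed. Dispersion came from all 6 libraries, with genotype plus linear day (3 residual degrees of freedom, common dispersion 0.017), which favors genes with a steady difference. Day 7 was tested by likelihood ratio, the 3-day effect and the day trend by quasi-likelihood tests, with Benjamini-Hochberg adjustment. Standard errors of log2 values came from the dispersion of each gene, and trend intervals from a normal approximation. Neither uses the quasi-likelihood test, so both may be too narrow beside its p-values. Spleens were taken on each day, so libraries of different days hold different animals, and p-values measure the spread over days, with no replicate within a day. The scripts were tested on simulated data. RPKM used the exon lengths in the deposited table.

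Day pairs the libraries: after genotype means were removed, libraries of a day correlated with r = 0.64, 0.413 and 0.645 across the 11005 genes. Alternatives were day as a replicate block, other scalings, filters and tests, DESeq2 1.42.0, and each library left out. Members and lists were chosen with earlier results of these data known. Named were all members, Il21r, Ccr1, Ccr3 and Ccr8, list genes called in a comparison (at most 8 each, otherwise the 2 most abundant), the 5 genes most like each tested member, and leading markers. Other genes named, such as Ackr4, were chosen after their values were seen. Some items the rule names are not reported here.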

Additional observations from a re-analysis of the deposited data

Results flagged for a closer look

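For 3 tested chemokine receptors the estimated difference had opposite signs on different days, with 1 library per genotype and day. No value passed the test (adjusted p = 0.742 to 0.999, edgeR likelihood ratio test), and the difference between days was not tested. The log2 fold change of Cxcr4, Il21r-/- relative to WT, was −0.27 ± 0.25 (SE) on day 7 and 0.1 ± 0.25 on day 10. For Cxcr5 it was −0.31 ± 0.25 on day 7, 0.34 ± 0.25 on day 10 and 0.21 ± 0.25 on day 14. Ackr2 was at −0.23 ± 0.29 on day 7 and 0.36 ± 0.31 on day 14.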

How the results depend on the processing

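Ccl22 ranged from 4.15 to 4.48 on day 7 and from 4.45 to 4.99 over 3 days on the log2 scale, and Ccr4 from 3.15 to 3.23 and from 3.6 to 4.44, over all alternatives run. Their day trends had an adjusted p of at least 0.514 and 0.552. A minimum of 10 counts in every library removed Ccr4, which had 5 in WT day 14. With day as a replicate block, the paired value was 4.7 for Ccl22 and 4.01 for Ccr4.

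Counts of called genes moved more. On day 7 (118 genes), DESeq2 called 67, and leaving out 1 library gave 105 to 212, the highest without Il21r-/- day 10. Over 3 days (651 genes), no filter gave 991, the likelihood ratio test 1193 and the replicate block 2519 (1492 higher, 1027 lower in Il21r-/-). Leaving out 1 library gave 136 (without WT day 14) to 2093 (without Il21r-/- day 10), with 340 without WT day 10 and 276 without Il21r-/- day 14. The day trend (488 genes) gave 869 with no filter, 870 with DESeq2 and 1186 by likelihood ratio. Leaving out 1 library gave 0 (without WT day 7) to 2124 (without Il21r-/- day 10), with 84 without Il21r-/- day 7, 5 without WT day 14 and 138 without Il21r-/- day 14. The cause was not tested. No day 7 effect can be fitted without a day 7 library. Ackr4 was called with the block only among fits of all libraries (−0.37, adjusted p = 0.00406). Reads at or under 3 counts limit Ccl17, Ccl3, Ccl4 and Ccl5.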
